A study of Mus musculus with 13 samples.

Results

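In epididymal fat, 4860 genes changed with high-fat feeding in the same direction in wild-type mice and in mice without the ATP receptor P2X7, and 5 changed in opposite directions. With all 13 arrays no gene passed the test of a difference between the responses, and without 1 of the arrays 106 did. The quantity described is the diet by P2X7 genotype interaction. For each gene it is the diet effect in knockout mice (high-fat minus chow) minus the diet effect in wild-type mice, on the log2 scale, so that a value of 1 is a 2-fold difference between the diet effects. A positive value places the knockout's diet effect above that of wild type, whether by a larger rise or by a smaller fall. It was computed from all 13 arrays of the series, for all 18820 genes that a probe set of the array named alone, and where several probe sets named a gene the one with the highest mean stood for it.

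The RNA came from the epididymal fat pad, abdominal white fat beside the testis, of male mice 18 weeks old. The wild-type mice were C57/BL6 and the knockouts B6.129P2-P2rx7tm1Gab/J, a whole-body P2rx7 mutant made in cells of another strain and crossed back to B6 for 7 generations. From 6 weeks of age, and for 12 weeks, the mice were fed either chow, with fat at 13% of its energy, or D12492, the high-fat diet, with fat at 60%. There were 3 arrays each for wild type on chow, wild type on high-fat diet and knockout on chow, and 4 for knockout on high-fat diet. The labels do not say that each array held 1 animal, and the spread that p-values rest on may in part be technical. The tissue was whole fat, so for a gene of 1 cell type, fewer cells and less RNA per cell cannot be told apart.

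P2X7 is an ion channel on macrophages and other immune cells that opens when ATP leaks from stressed or dying cells. Its opening lets potassium out of the cell and is a textbook trigger of the NLRP3 inflammasome, in which the sensor NLRP3 and the adaptor ASC (Pycard) activate caspase-1 to cut the precursors of IL-1beta and IL-18. Obese fat gathers macrophages around dying adipocytes, which makes it a setting where released ATP could matter, and the interaction asks whether the mouse without the receptor answers the diet in another way. Fat also runs a circadian clock, in which BMAL1 (Arntl) with CLOCK or NPAS2 binds E-boxes and drives Per, Cry and Ciart, whose products hold it back.

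The start regions of 4 genes are shown. Ciart, Per1 and Tef had the smallest unadjusted p-values of the interaction (limma) among clock genes with an E-box there. Hsph1 is a heat shock gene among the 10 with the most negative interaction statistics. Each runs 5′ to 3′ from 250 bases before to 50 after the gene's start, from RefSeq on GRCm38.p6, with matches in capitals. The motifs searched on both strands were the E-box CACGTG, the D-box TTATGNAA, the nuclear receptor site TGACCT and the heat shock element TTCNNGAA or GAANNTTC.
Ciart, chr3:95882179-95882478, minus strand: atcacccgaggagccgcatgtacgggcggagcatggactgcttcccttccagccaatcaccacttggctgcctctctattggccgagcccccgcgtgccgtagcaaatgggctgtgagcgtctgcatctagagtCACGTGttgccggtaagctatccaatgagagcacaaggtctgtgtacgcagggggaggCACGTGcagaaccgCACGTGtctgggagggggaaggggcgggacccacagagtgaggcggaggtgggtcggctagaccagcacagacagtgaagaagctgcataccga
Per1, chr11:69098699-69098998, plus strand: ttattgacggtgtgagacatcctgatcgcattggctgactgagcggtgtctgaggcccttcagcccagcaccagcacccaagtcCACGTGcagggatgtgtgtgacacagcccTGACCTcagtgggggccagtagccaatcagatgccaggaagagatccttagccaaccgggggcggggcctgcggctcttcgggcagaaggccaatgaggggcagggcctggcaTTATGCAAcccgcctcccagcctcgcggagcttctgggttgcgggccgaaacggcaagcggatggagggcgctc
Tef, chr15:81802423-81802722, plus strand: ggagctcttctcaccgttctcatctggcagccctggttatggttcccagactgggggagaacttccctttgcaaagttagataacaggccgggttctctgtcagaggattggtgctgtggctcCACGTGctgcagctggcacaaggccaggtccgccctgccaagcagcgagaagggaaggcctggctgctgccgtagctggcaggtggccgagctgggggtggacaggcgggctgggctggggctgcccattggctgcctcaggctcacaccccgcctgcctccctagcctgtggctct
Hsph1, chr5:149636287-149636586, minus strand: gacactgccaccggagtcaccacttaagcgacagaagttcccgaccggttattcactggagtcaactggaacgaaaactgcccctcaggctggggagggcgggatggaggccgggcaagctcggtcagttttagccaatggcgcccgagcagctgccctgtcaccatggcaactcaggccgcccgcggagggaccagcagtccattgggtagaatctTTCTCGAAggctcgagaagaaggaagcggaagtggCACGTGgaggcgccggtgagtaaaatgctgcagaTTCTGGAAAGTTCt
In Ciart the capitals mark 3 E-boxes, 116, 58 and 44 bases before the start, and 29 of 32851 such windows (0.0883%) held 3 or more. In Per1 they mark an E-box 166 bases, a receptor site 137 bases and a D-box 24 bases before the start. Tef, which codes for a D-box binding factor, held an E-box 127 bases before its start. Hsph1 held a heat shock element 33 bases before the start, an E-box 2 bases after it, and a pair of overlapping heat shock elements 36 and 41 bases after it. Of all windows, 7.15% held an E-box, 3.38% a D-box, 16.3% the receptor site and 15.1% a heat shock element. Of the 15 clock genes measured, 13 had a window and 5 of these held an E-box in at least 1 window. Some genes had several windows, so this count of genes is not on the same footing as the shares of windows. Per1 and Tef had 2 windows each, of which 1 is shown. A match is a description of the letters and shows no binding.

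Some arrays stood apart before any gene was tested. The first principal component, with 74.7% of the variance, separated the diets, and on it wild-type high-fat replicate 2 (23.2) and knockout high-fat replicate 1 (23.0) lay nearest to chow, while the other high-fat arrays lay between 32.1 and 41.8. The mean log2 value of 18 liver markers was 8.24, 7.63 and 7.37 in wild type on chow and 6.44, 7.40 and 5.81 in wild type on high-fat diet. In knockouts it was 6.26, 6.30 and 6.39 on chow and 6.71, 6.16, 5.66 and 5.78 on high-fat diet. Knockout high-fat replicate 2 was high in lymphocyte markers, with a B cell mean of 7.07 against 5.47 for the lowest array of its group. Arrays of a group correlated across genes at 0.993 to 0.997. Marker lists for epididymis and testis, the organs next to this fat pad, had means of 3.46 to 3.82 and 4.01 to 4.16 over all arrays, and adipocyte genes 10.5 to 11.58.

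Over all genes the diet effects of the genotypes lay along the line of equality. The limma fit called 6736 genes for diet in wild type (35.8%), 3327 up (17.7%) and 3409 down (18.1%). It called 6429 in knockouts (34.2%), 2721 up (14.5%) and 3708 down (19.7%). Of these, 4860 passed in both with the same sign, which is 72.1% of the wild-type calls and 75.6% of the knockout calls, and 5 (0.0266%) passed in both with opposite signs. The diet effects, which share no array, correlated across genes at r = 0.918 (genes are not independent replicates). For the interaction itself 0 of 18820 genes passed (0%), with a smallest adjusted p of 0.0783. At an unadjusted p under 0.05 there were 1829 genes (9.72%), 566 with positive (3.01%) and 1263 with negative values (6.71%). That lean depended on scaling: 69.1% of these genes were negative with the deposited values, 55.3% after centring each array on its median and 55.2% after a second quantile normalisation. Over all genes 58.5% were negative and 41.5% positive, against 50.8% and 51.8% negative under those scalings, with a median interaction of -0.03 that moved to -0.003 and -0.007.

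**Figure D1:**
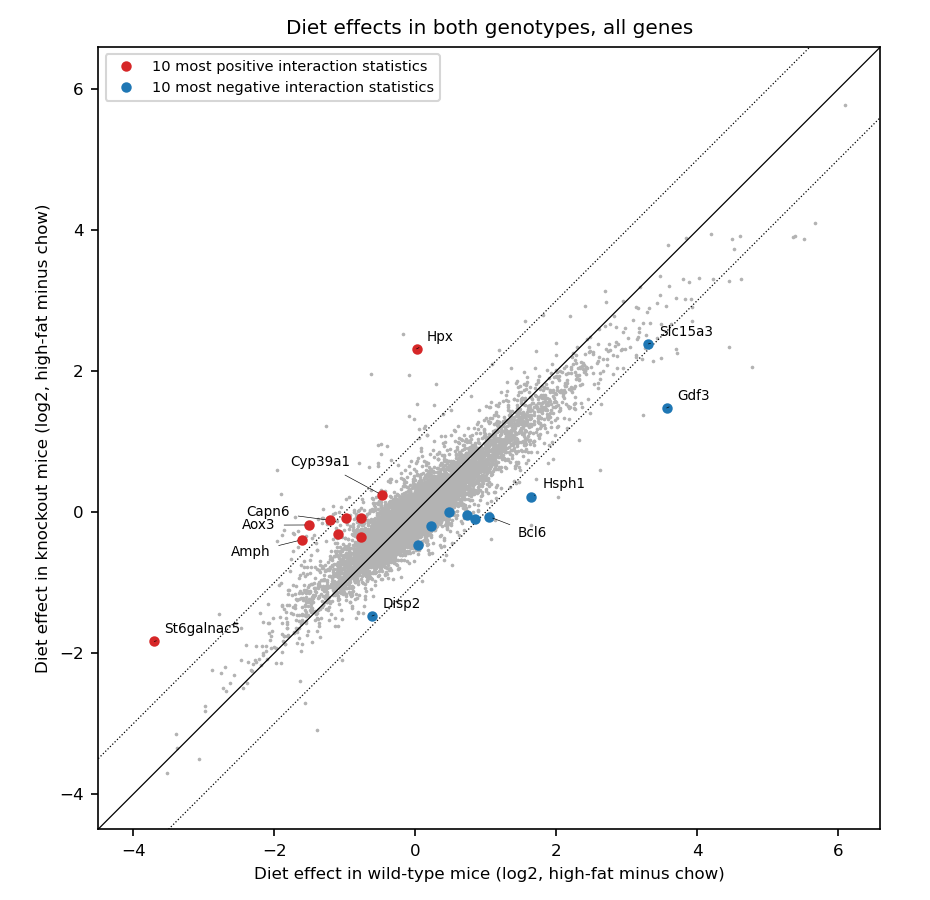
Diet effect in wild-type mice (horizontal axis) against the diet effect in knockout mice (vertical axis), both as log2 high-fat minus chow, 1 grey point per gene for 18820 genes. The solid line marks equal effects and the dotted lines a 2-fold difference, and the coloured points are the 10 genes with the most positive and the 10 with the most negative interaction statistics, none of which passed.

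By size, the knockout diet effect was more often the smaller. Among 802 genes with a mean diet effect of at least 2-fold up, the median rise was 1.57 in wild type and 1.36 in knockouts, and 81.8% had the smaller effect in knockouts. Among 405 genes at least 2-fold down, the medians were -1.41 and -1.19, and 72.3% had the smaller effect in knockouts, against 56.8% of all genes. The wild-type median lay farther from 0 in all 25 refits with other settings or fewer arrays. Of the 1829 genes with an unadjusted p under 0.05, 73.9% had the smaller diet effect in knockouts, and in 61.9% the genotypes differed more on chow than on high-fat diet, against 54.7% of all genes. These shares describe the genes and carry no test.

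The intervals show what the arrays could have missed. The 95% interval of the interaction reached a median of 0.28 on either side of the estimate, 0.19 at the 10th percentile of genes and 0.49 at the 90th. It lay within 1.5-fold in either direction for 14775 genes (78.5%) and reached past 2-fold for 824 (4.38%). Estimates ran from -2.72 for Serpinb9b, a serpin with close copies that the probe set may share, to 2.69 for Igkc, the constant part of the antibody kappa chain, and 100 genes lay beyond 1 in size.

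The count of 0 rested on wild-type high-fat replicate 2. Without that array limma called 106 genes (0.563%), 85 negative (0.452%) and 21 positive (0.112%), and all 106 had the same sign with all arrays. Without wild-type high-fat replicate 3 it called 4 (Cp, Cyp39a1, Mir181b-2, Mir543), without wild-type chow replicate 3 it called 2 (Atp1a4, Gchfr), without wild-type chow replicate 2 it called Aox3, and without any of the other 9 arrays it called 0. The array that decides the count was the wild-type high-fat array nearest to chow and the one with the highest liver markers of its group, and the part of either in the count was not tested. Left out together with knockout high-fat replicate 1, the knockout array nearest to chow, it left 35 genes that passed, and together with wild-type chow replicate 1, 59. With the liver marker mean as a covariate 0 passed.

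**Figure D2:**
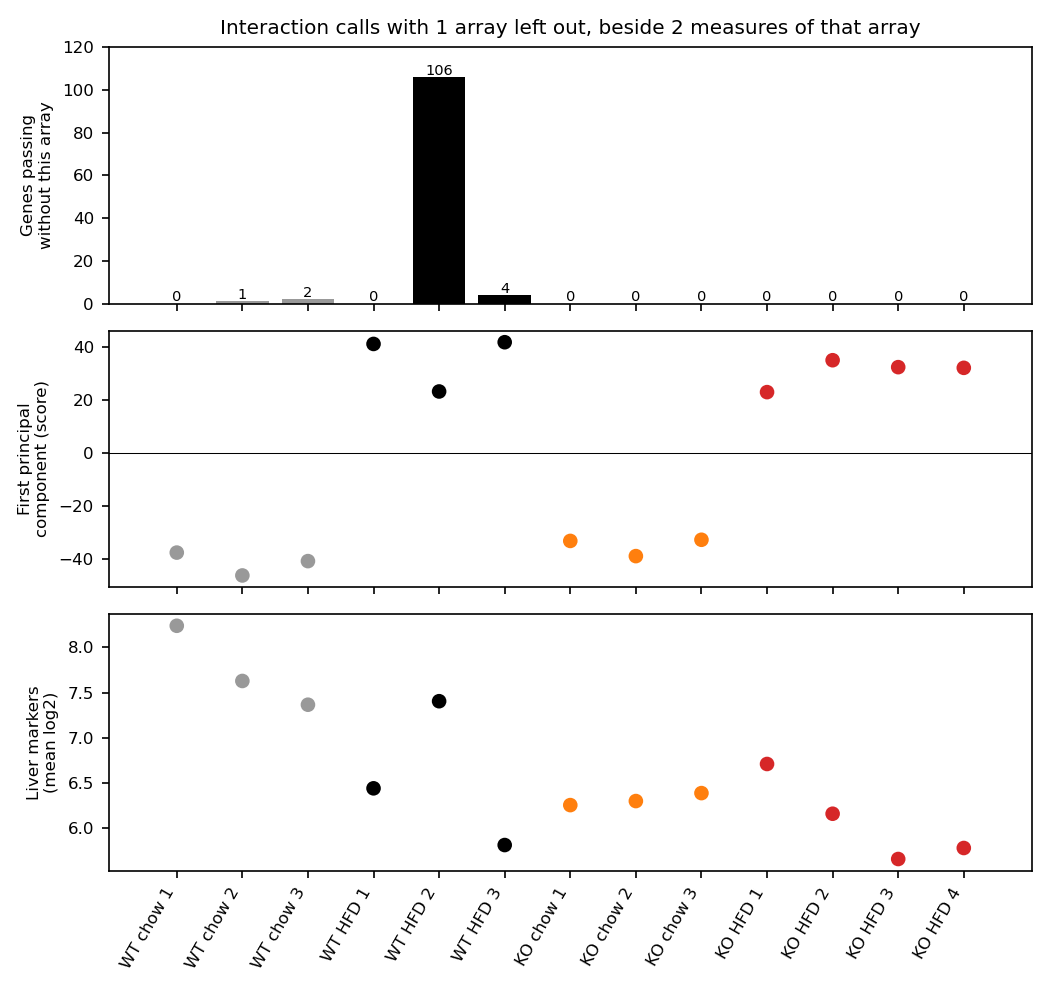
For each of the 13 arrays, the number of genes whose interaction passed when that array was left out (top, bars), its score on the first principal component (middle) and its mean log2 value over 18 liver markers (bottom), 1 point per array, coloured by group. The bar of wild-type high-fat replicate 2 reaches 106, where the other bars reach 4 or less.

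The lists below hold 620 measured entries, and some genes appear in more than 1 list. These lists were chosen with earlier results of these data known. Without wild-type high-fat replicate 2, 0.563% of all 18820 genes passed. Among these 106 genes, 11 belonged to the lists. They were Panx1 and P2rx4 of ATP signalling, the glucose and lactate carriers Slc2a1 and Slc16a3, the clock gene Npas2, the stress factor Atf3, the cytokine Tnf, the collagenase Mmp13, the antioxidant enzyme Srxn1, and Hpx and Hp, which bind free haem and haemoglobin in blood. The cytokine gene Tnf read 5.89, 5.72 and 5.27 in wild type on chow and 7.95, 7.36 and 8.03 on high-fat diet. In knockouts Tnf read 5.78, 6.16 and 6.19 on chow and 7.11, 7.38, 7.31 and 7.12 on high-fat diet. Replicate 2 of the wild-type high-fat group was thus the lowest of its group for Tnf and lay among the knockout high-fat arrays. The Tnf interaction was -0.96 with all arrays (limma adjusted p 0.325) and -1.17 without replicate 2 (adjusted p 0.0446).

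Of the 10 genes with the most positive interaction statistics, 9 fell with the diet in wild type, and all 10 were lower in every knockout array than in any wild-type array on chow. Aox3, an aldehyde oxidase, read 7.32, 6.89 and 7.20 in wild type on chow and 5.36, 5.87 and 5.65 on high-fat diet. In knockouts Aox3 read 6.22, 6.32 and 6.33 on chow and 6.11, 6.08, 6.18 and 6.04 on high-fat diet. The knockout arrays all lay between the wild-type groups. Aox3 thus fell by 1.51 ± 0.13 (SE) in wild type and was -0.18 ± 0.12 in knockouts, an interaction of 1.33 (95% interval 0.95 to 1.71, limma adjusted p 0.0783), and over 25 refits that adjusted p ran from 0.00492 to 0.388. Its relatives Aox1 and Aox4 had interactions of 0.34 and -0.04.

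Cyp39a1, which hydroxylates 24-hydroxycholesterol on the way to bile acids, came next. It read 7.29, 7.16 and 7.16 in wild type on chow and 6.64, 6.73 and 6.83 on high-fat diet. In knockouts Cyp39a1 read 6.92, 6.81 and 6.86 on chow and 7.07, 7.17, 7.09 and 7.10 on high-fat diet. The order of the diets was reversed between the genotypes with no overlap in either; over all genes the diet groups did not overlap for 43.3% in wild type and 43% in knockouts. The interaction of Cyp39a1 was 0.71 (0.49 to 0.93, adjusted p 0.0836), between 0.67 and 0.76 in all refits that left out 1 array.

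St6galnac5, which adds sialic acid to gangliosides, had the widest gap among the falling genes. It read 8.77, 9.40 and 9.84 in wild type on chow and 5.90, 5.76 and 5.24 on high-fat diet. In knockouts St6galnac5 read 7.80, 8.47 and 7.92 on chow and 6.15, 6.10, 6.49 and 6.17 on high-fat diet. St6galnac5 fell by 3.71 in wild type and fell by 1.84 in knockouts, and the interaction was 1.87 ± 0.34 (adjusted p 0.179). Capn6, a calpain-family protein without protease activity, had an interaction of 1.10 ± 0.19 and Amph, an endocytosis adaptor, of 1.22 ± 0.21. Adamtsl1, a secreted matrix protein, had 0.90 ± 0.14, and the axon guidance signal Sema3a 0.69 ± 0.13. Tgfbr3, the TGF-beta co-receptor betaglycan, had 0.42 ± 0.07, and the polarity protein gene Epb41l5 had 0.78 ± 0.17. Adjusted p-values of these 6 lay between 0.145 and 0.298.

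Hpx differed from the others in that its wild-type diet effect was near 0. Hpx codes for haemopexin, the blood protein that carries free haem, and is made mainly in liver. It read 7.54, 7.02 and 6.75 in wild type on chow and 6.56, 7.66 and 7.14 on high-fat diet. In knockouts Hpx read 5.62, 5.08 and 5.56 on chow and 8.35, 7.03, 7.55 and 8.02 on high-fat diet. The knockout chow arrays were the low group and the other groups overlapped. The interaction of Hpx was 2.30 ± 0.45 (adjusted p 0.240), and Hpx is 1 of the 18 liver markers whose mean also differed between the chow groups.

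**Figure D3:**
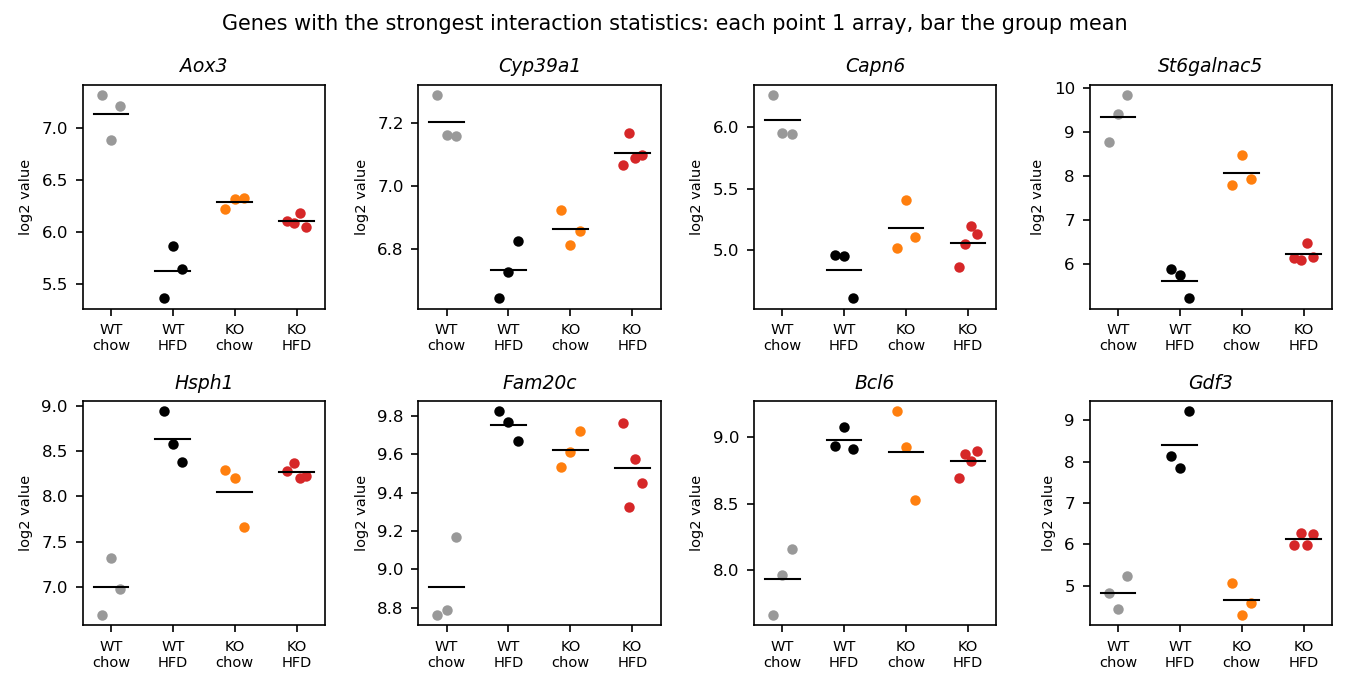
Log2 values of 8 genes among those with the most extreme interaction statistics, 1 point per array and a bar at the mean of each group (WT wild type, KO knockout, HFD high-fat diet); each panel has its own axis. For Aox3 and Hsph1 all knockout arrays lie between the wild-type groups, and for Gdf3 the knockout high-fat arrays do.

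Of the 10 genes with the most negative statistics, 8 were higher in every knockout array than in any wild-type array on chow. Hsph1, a large heat shock protein that acts with HSP70 and whose start region is shown above, read 6.69, 7.32 and 6.98 in wild type on chow and 8.94, 8.58 and 8.38 on high-fat diet. In knockouts Hsph1 read 8.29, 8.21 and 7.66 on chow and 8.28, 8.37, 8.21 and 8.22 on high-fat diet. Every knockout array lay above wild-type chow and below wild-type high-fat. The interaction of Hsph1 was -1.42 ± 0.25 (adjusted p 0.162). Bcl6, a repressor in lymphocytes and fat cells, had -1.11 ± 0.20, with 7.66, 7.97 and 8.16 in wild type on chow against 9.19, 8.93 and 8.53 in knockouts on chow. Fam20c, the kinase of secreted proteins, had -0.94 ± 0.16 in the same pattern. Both were among the 25 genes (0.133%) that passed for genotype on chow.

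The genotype groups of Gdf3 were apart on the high-fat diet and not on chow, and those of Slc15a3 on both diets. Gdf3, a TGF-beta family ligand that obese fat macrophages make, read 4.81, 4.44 and 5.23 in wild type on chow and 8.13, 7.85 and 9.22 on high-fat diet. In knockouts Gdf3 read 5.07, 4.29 and 4.58 on chow and 5.98, 6.29, 5.99 and 6.24 on high-fat diet. The chow groups overlapped and the high-fat groups did not, with a gap of more than 1 log2 unit between the nearest arrays. Gdf3 rose by 3.57 in wild type and by 1.48 in knockouts. Its interaction was -2.09 ± 0.42 (adjusted p 0.251), and it was among the 8 genes (0.0425%) that passed for genotype on high-fat diet. Slc15a3, a lysosomal histidine and peptide carrier of macrophages, rose by 3.31 in wild type and by 2.39 in knockouts, an interaction of -0.92 ± 0.18 (adjusted p 0.251).

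Disp2, a relative of the Hedgehog release protein Dispatched, and the cystatin gene Csta2 were higher in knockouts on chow and met wild type on the high-fat diet. Disp2 read 5.64, 5.77 and 5.89 in wild type on chow and 6.55, 6.40 and 6.64 in knockouts on chow, while on high-fat diet it lay between 4.94 and 5.25 in both. The interaction of Disp2 was -0.86 ± 0.15. Csta2 lay near the low end of the array at 2.67 to 3.30 throughout. Gpc1 (a heparan sulphate proteoglycan), Tcof1 (a nucleolar protein) and Skint11 had interactions of -0.77, -0.47 and -0.42. Of the 20 genes of both signs, 18 had chow groups that did not overlap and 12 had high-fat groups that did not, where all genes gave 14.9% and 6.68%. The genes were chosen by their interaction, so these counts describe them and support nothing.

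The 5 genes that passed for diet with opposite signs were Cyp39a1, Stbd1, Banp, Skint11 and Olfr566. Stbd1, which tethers glycogen to membranes, read 4.16, 4.23 and 3.72 in wild type on chow and 4.62, 4.31 and 4.38 on high-fat diet. In knockouts Stbd1 read 5.28, 5.03 and 4.89 on chow and 4.62, 4.70, 4.70 and 4.77 on high-fat diet. It rose by 0.40 ± 0.14 in wild type and fell by 0.37 ± 0.13 in knockouts, an interaction of -0.77 ± 0.19 (adjusted p 0.318). Banp, a nuclear protein that binds unmethylated CpG motifs, rose by 0.34 in wild type and fell by 0.35 in knockouts, an interaction of -0.69 (adjusted p 0.318). Olfr566, an odorant receptor gene, had an interaction of -0.49 (adjusted p 0.298). Each of these opposite moves was under 2-fold in both genotypes.

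The intervals of P2rx7 and of the 5 inflammasome genes named here all included 0. It is unknown here whether the P2rx7 probe set lies inside the mutated stretch, and the level of P2rx7 is therefore no check of the genotype. The interaction of P2rx7 was -0.31 (-0.70 to 0.07, limma adjusted p 0.588). P2rx7 rose by 1.32 ± 0.13 in wild type and by 1.01 ± 0.12 in knockouts. Nlrp3, the sensor, had -0.28 (-0.68 to 0.11) and Pycard, the adaptor, -0.25 (-0.70 to 0.20). Casp1, the protease, read 6.92, 7.09 and 7.14 in wild type on chow and 8.89, 8.60 and 9.14 on high-fat diet. In knockouts Casp1 read 7.23, 7.21 and 7.16 on chow and 8.71, 8.96, 8.97 and 9.25 on high-fat diet. The high-fat groups overlapped, and the rises of 1.82 ± 0.14 and 1.78 ± 0.13 gave an interaction of -0.05 (-0.46 to 0.36).

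The cytokines that caspase-1 cuts did not pass for diet in either genotype. Il1b read 5.39, 5.71 and 4.97 in wild type on chow, 5.63, 5.16 and 5.70 in wild type on high-fat diet, 5.52, 5.43 and 5.40 in knockouts on chow and 5.37, 5.47, 5.43 and 5.37 in knockouts on high-fat diet. All 4 groups of Il1b overlapped. The interaction of Il1b was -0.18 (-0.68 to 0.31) and that of Il18 0.07 (-0.26 to 0.39). Of 26 listed inflammasome and IL-1 genes, 2 had a positive and 2 a negative interaction at an unadjusted p under 0.05. Over all genes these shares were 3.01% and 6.71%. The list median was -0.06 against -0.03 for all genes. The positive ones were Il33, an alarm cytokine of stromal cells, at 0.79 ± 0.23, and Txnip, which binds thioredoxin, at 0.17 ± 0.07. The negative ones were Nlrc4, the flagellin-pathway inflammasome core, at -0.56 ± 0.24, and Il1rn, the IL-1 receptor blocker, at -0.82 ± 0.36. Of the 26 intervals, 14 lay within 1.5-fold and 3 reached past 2-fold. The list's median diet effect was 0.61 in wild type and 0.55 in knockouts. In each genotype 15 genes were up, where 17.7% of all genes rose in wild type and 14.5% in knockouts.

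Among receptors and enzymes of extracellular ATP, 1 of 20 genes had a positive and 2 a negative interaction at an unadjusted p under 0.05. Over all genes these shares were 3.01% and 6.71%. P2rx4, the ATP-gated channel closest to P2X7 in family and a neighbour of P2rx7 on the chromosome, read 9.84, 9.60 and 9.83 in wild type on chow and 11.26, 10.97 and 11.31 on high-fat diet. In knockouts P2rx4 read 9.87, 9.80 and 9.76 on chow and 10.52, 10.75, 10.72 and 10.63 on high-fat diet. The chow groups overlapped, and all knockout high-fat arrays lay below all wild-type high-fat arrays. P2rx4 rose by 1.42 ± 0.09 in wild type and by 0.84 ± 0.09 in knockouts, an interaction of -0.58 (-0.86 to -0.30, limma adjusted p 0.298; 0.0276 without wild-type high-fat replicate 2). Panx1, the pannexin pore through which cells release ATP, rose by 1.43 ± 0.17 and by 0.71 ± 0.16, an interaction of -0.72 ± 0.23 (adjusted p 0.375; 0.0127 without that array). Nt5e, the enzyme CD73 that turns AMP into adenosine, fell by 1.94 ± 0.27 in wild type and by 1.04 ± 0.26 in knockouts, an interaction of 0.90 ± 0.37. The 20 genes had a median interaction of 0.01.

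The circadian clock list was the one in which the largest share of genes had a low unadjusted p: 7 of 15 positive and 2 of 15 negative at p under 0.05, against 3.01% and 6.71% of all genes. The clock genes had been looked at before in these data, so their count is a description. The falls of the repressors were smaller in knockouts, with no gene past the adjusted threshold. Ciart, the repressor whose start region holds 3 E-boxes, read 8.12, 8.17 and 8.57 in wild type on chow and 6.53, 6.39 and 6.96 on high-fat diet. In knockouts Ciart read 7.31, 6.84 and 7.44 on chow and 6.83, 6.43, 6.90 and 6.63 on high-fat diet. On chow all knockout arrays lay below wild type, and on high-fat diet the groups overlapped. Ciart fell by 1.66 ± 0.19 in wild type and by 0.50 ± 0.18 in knockouts, an interaction of 1.16 (0.61 to 1.72, limma adjusted p 0.298, between 0.0972 and 0.524 with 1 array left out).

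Other repressors and output genes of the clock had the same sign. Per3 fell by 1.57 ± 0.14 and by 0.78 ± 0.13 (interaction 0.79 ± 0.20), and Per1 fell by 1.00 ± 0.18 in wild type and was -0.37 ± 0.17 in knockouts (0.63 ± 0.24). The D-box binding factors Hlf and Tef fell by 1.36 and 1.09 in wild type and by 0.75 and 0.72 in knockouts. Nr1d2, the repressor REV-ERB beta, had an interaction of 0.23 ± 0.09, and Bhlhe40, the repressor DEC1, of 0.64 ± 0.26. Per1 and Tef hold an E-box in the windows shown above, and Per3, Hlf and Nr1d2 hold none in theirs.

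The activators had negative interactions. Arntl (BMAL1) read 5.93, 5.90 and 5.48 in wild type on chow and 7.74, 7.27 and 7.11 on high-fat diet. In knockouts Arntl read 6.27, 6.39 and 6.37 on chow and 6.95, 7.29, 6.94 and 7.17 on high-fat diet. Arntl rose by 1.60 ± 0.16 in wild type and by 0.74 ± 0.15 in knockouts, an interaction of -0.86 ± 0.22 (adjusted p 0.320). Npas2 rose by 1.93 ± 0.18 and by 1.00 ± 0.17, an interaction of -0.94 ± 0.25. Clock itself had -0.14 and Nfil3, a D-box repressor, -0.10. The other 4 of the 15, Cry1, Per2, Bhlhe41 and Cry2, had positive values of 0.16 to 0.42 at unadjusted p over 0.05. The median interaction of the list was 0.31, between 0.22 and 0.38 with 1 array left out and 0.44 with the liver covariate. The hour of tissue collection was not known for these samples.

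**Figure D4:**
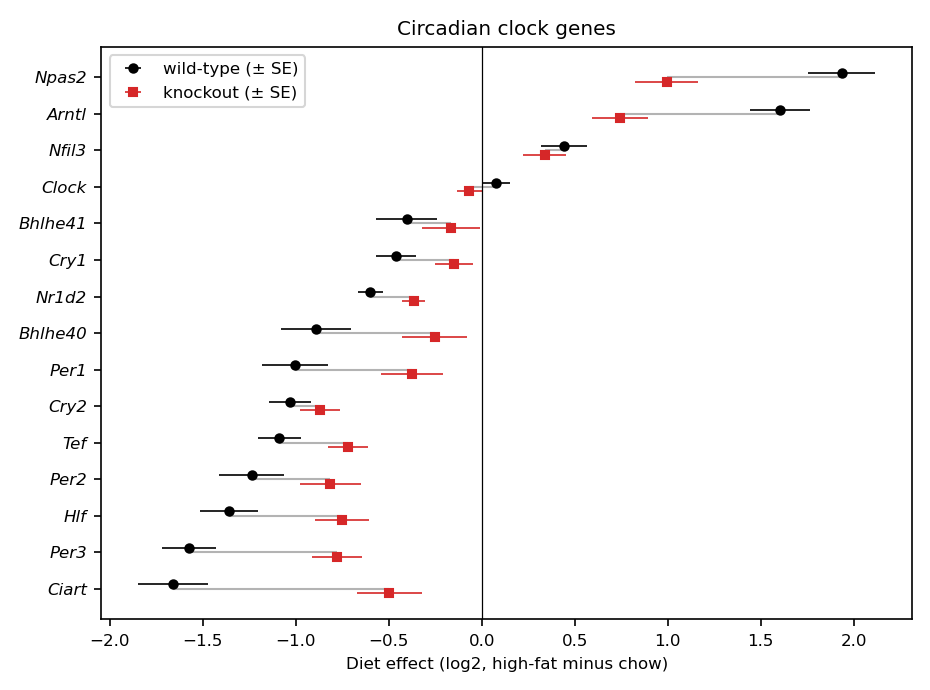
Diet effect (log2, high-fat minus chow) of 15 circadian clock genes in wild-type mice (black circles) and knockout mice (red squares), with bars of 1 SE from limma. In all 15 the knockout point lies nearer to 0, as for Ciart at -1.66 and -0.50 and Arntl at 1.60 and 0.74.

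High-fat feeding raised 11 of 23 chemokines and lowered 2 in wild type, where 17.7% of all genes rose and 18.1% fell. In knockouts 8 rose and 3 fell, where 14.5% and 19.7% of all genes did. These counts were not tested against each other. The median diet effect was 0.61 and 0.23. Interactions of the chemokines were negative for 4 and positive for 0 at an unadjusted p under 0.05, against 6.71% and 3.01% of all genes. Of the 23 intervals, 4 lay within 1.5-fold and 11 reached past 2-fold, against 78.5% and 4.38% of all genes. Ccl2, which draws monocytes into tissue, read 8.14, 8.01 and 7.89 in wild type on chow and 10.28, 9.65 and 9.23 on high-fat diet. In knockouts Ccl2 read 8.52, 9.18 and 8.86 on chow and 9.46, 9.27, 9.22 and 9.35 on high-fat diet. The knockout chow arrays all lay above wild-type chow, and the high-fat groups overlapped. The interaction of Ccl2 was -1.24 (-1.87 to -0.61, adjusted p 0.318). Ccl7, which shares receptors with Ccl2, had -0.95 ± 0.23, and Ccl3 and Ccl9 had -0.96 ± 0.38 and -0.39 ± 0.16.

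All 17 macrophage markers had negative interactions, where 58.5% of all genes did. Their median was -0.27 (-0.24 after centring and -0.10 with the liver covariate). Of the 17, 2 had an unadjusted p under 0.05, against 6.71% of all genes on the negative side. Those were Fcgr3, an antibody receptor, at -0.60 ± 0.20 and the scavenger receptor Msr1 at -0.73 ± 0.27. The mean of the 17 markers was 8.93 to 9.30 in wild type on chow, 10.37 to 10.74 in wild type on high-fat diet, 9.20 to 9.45 in knockouts on chow and 10.37 to 10.61 in knockouts on high-fat diet. The high-fat ranges overlapped and so did the chow ranges. Adgre1, the surface protein F4/80, rose by 2.32 ± 0.13 in wild type and by 1.95 ± 0.13 in knockouts, an interaction of -0.37 (-0.76 to 0.03).

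Lipid-associated macrophage genes are those of the TREM2-positive cells that surround dying adipocytes. Of 19, 1 had a positive and 7 a negative interaction at an unadjusted p under 0.05, against 3.01% and 6.71% of all genes. The list median was -0.29. Mmp12, macrophage elastase, read 8.69, 6.38 and 7.65 in wild type on chow and 12.30, 11.60 and 12.16 on high-fat diet. In knockouts Mmp12 read 9.64, 8.05 and 10.30 on chow and 11.57, 11.57, 11.72 and 11.82 on high-fat diet. Mmp12 was the most variable of them on chow, and its interaction of -2.11 had an interval of -3.70 to -0.52 (adjusted p 0.398). Gpnmb, a glycoprotein of lipid-laden macrophages, had -1.18 ± 0.50 and the lipid droplet coat gene Plin2 -0.32 ± 0.08. Trem2 itself rose by 3.89 ± 0.22 and by 3.26 ± 0.21, an interaction of -0.63 (-1.29 to 0.04). The gene with a positive value was Fabp4, the fatty acid carrier that adipocytes also make, at 0.23 ± 0.09. Macrophage markers moved with these genes, as given above, and their part in the values was not tested.

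All 18 lysosomal genes had negative interactions, where 58.5% of all genes did, and 9 of the 18 had an unadjusted p under 0.05, against 6.71% of all genes on the negative side. Their median was -0.26 (-0.23 after centring, -0.17 with the liver covariate). The macrophage markers moved with this list too, 17 of 17 negative with a median of -0.27, and their part in it was not tested. The lysosomal genes rose in both genotypes, 17 of 18 in wild type and 16 of 18 in knockouts, where 17.7% and 14.5% of all genes rose. Hexa, a ganglioside-splitting hexosaminidase subunit, rose by 1.35 ± 0.08 and by 0.97 ± 0.08. The cathepsin gene Ctsd rose by 0.76 ± 0.07 and by 0.47 ± 0.06, and Gla, alpha-galactosidase A, by 2.52 ± 0.13 and by 1.98 ± 0.13. The interaction of Npc2, the cholesterol carrier of the lysosome, was -0.37 ± 0.12. Of the 18 intervals 12 lay within 1.5-fold and 1 reached past 2-fold. Ctsd belongs to this list and to that of lipid-associated macrophages.

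Genes of protein folding stress gave 8 negative and 0 positive interactions of 17 at an unadjusted p under 0.05. All genes gave 6.71% and 3.01%. Sdf2l1, an endoplasmic reticulum co-chaperone, read 8.99, 8.84 and 8.79 in wild type on chow and 10.47, 10.10 and 10.06 on high-fat diet. In knockouts Sdf2l1 read 9.70, 9.44 and 8.93 on chow and 9.64, 9.95, 9.81 and 9.44 on high-fat diet. The wild-type diet groups were separate and the knockout diet groups overlapped, with an interaction of -0.98 ± 0.24 (adjusted p 0.320). Hspa5, the chaperone BiP, had -0.37 ± 0.12 and Atf3, a stress-induced transcription factor, -0.96 ± 0.22. The calcium-binding chaperone gene Calr had -0.28 ± 0.09, and Hsp90b1 and Edem1, which act in folding and in disposal of misfolded proteins, had -0.29 and -0.25. Of the 17, 11 were negative and 6 positive, where 58.5% and 41.5% of all genes were. Asns and Chac1, of the amino acid branch, were among the positive ones at 0.16 and 0.30. In wild type 10 of the 17 genes rose and 4 fell, and in knockouts 2 rose and 4 fell, where 17.7% and 14.5% of all genes rose; these counts were not tested against each other. The list medians of the diet effect were 0.24 and 0.07.

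Glucose use and oxidant defence had 3 negative and 0 positive interactions each at an unadjusted p under 0.05, of 19 and 24 genes. All genes gave 6.71% and 3.01%. Slc2a1, the glucose carrier GLUT1, read 8.69, 8.85 and 8.72 in wild type on chow and 9.94, 9.10 and 9.63 on high-fat diet. In knockouts Slc2a1 read 8.88, 8.78 and 8.88 on chow and between 8.97 and 9.14 in the 4 arrays on high-fat diet. Wild-type high-fat replicate 2 was the lowest array of its group and lay within the knockout high-fat arrays. The interaction of Slc2a1 was -0.62 ± 0.21 (adjusted p 0.383; 0.0127 without that array). Slc16a3, the lactate exporter MCT4, had -0.72 ± 0.20 and the glycolytic mutase gene Pgam1 -0.32 ± 0.09. Hmox1, haem oxygenase, rose by 2.04 ± 0.16 and by 1.43 ± 0.15, and Srxn1 and Gss, of thiol repair and glutathione synthesis, had interactions of -0.68 and -0.37. The list medians, -0.05 and -0.07, lay near that of all genes.

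All 20 interferon-stimulated genes had negative interactions, where 58.5% of all genes did. But 4 had an unadjusted p under 0.05, against 6.71% of all genes on the negative side, and 9 intervals reached past 2-fold. Their median was -0.36, between -0.55 and -0.08 with 1 array left out. The mean log2 value of the list was 8.13 in knockout chow replicate 1. It was 7.40 and 7.21 in the others of that group and 7.16 to 7.66 over all other arrays. Oasl1 read 6.49, 6.13 and 6.32 in wild type on chow and 8.01, 8.22 and 8.18 on high-fat diet. In knockouts Oasl1 read 7.36, 6.71 and 6.43 on chow and 7.74, 7.86, 7.73 and 7.91 on high-fat diet, so that its chow groups overlapped and its high-fat groups did not. The interaction was -0.84 ± 0.25 for Oasl1, -0.65 ± 0.24 for Oas1a, -0.70 ± 0.30 for Oas3 (all of the 2-5A family that senses viral RNA) and -0.58 ± 0.21 for the virus tether Bst2. Oasl1, Oas1a, Oas3, Oas2 and Oasl2 lie within 100 genes of P2rx7, where DNA of the mutant's strain of origin can persist, and they are close copies whose probe sets may share signal. The other 15 genes were all negative, with a median of -0.32, and 1 of them had an unadjusted p under 0.05. Of 9 genes of antigen presentation on MHC class II, 3 had a negative and 0 a positive interaction at an unadjusted p under 0.05. All genes gave 6.71% and 3.01%. Among the 3 was Ciita, the master regulator, at -0.42 ± 0.19. Of 20 immediate early genes 4 were negative and 0 positive at an unadjusted p under 0.05, against 6.71% and 3.01% of all genes. Among these 4 were Jund at -0.55 ± 0.18 and Junb at -0.47 ± 0.18, which code for AP-1 subunits.

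Of 29 matrix genes, 21 rose and 1 fell in wild type, where 17.7% and 18.1% of all genes did. In knockouts 16 rose and 2 fell, where 14.5% and 19.7% of all genes did. These counts were not tested against each other. Among the 29 matrix genes 5 had a negative and 0 a positive interaction at an unadjusted p under 0.05, against 6.71% and 3.01% of all genes. Mmp13, a collagenase, rose by 2.32 ± 0.27 in wild type and by 1.02 ± 0.25 in knockouts, an interaction of -1.31 ± 0.36 (adjusted p 0.341). Col6a1, a chain of the collagen that wraps adipocytes, had -0.32 ± 0.10. All 19 cell division genes rose in each genotype, where 17.7% of all genes rose in wild type and 14.5% in knockouts. Their medians were 2.13 and 2.04. Bub1, a mitotic checkpoint kinase, read 4.95, 4.40 and 4.77 in wild type on chow and 5.58, 5.47 and 5.24 in knockouts on chow, against 7.06 to 7.81 in the 7 high-fat arrays. Its interaction was -0.90 ± 0.23, and the list median was -0.13.

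The share of intervals within 1.5-fold, 78.5% over all genes, was higher for oxidative phosphorylation and lower for lipogenesis and cholesterol synthesis. The adipocyte (81.8%), fatty acid oxidation (76.5%) and branched-chain amino acid (71.4%) lists lay near it. Of 22 genes of adipocyte identity and insulin response, 18 intervals lay within 1.5-fold and 0 reached past 2-fold, and of 26 genes of oxidative phosphorylation 25 lay within 1.5-fold, where 78.5% of all genes did. For lipogenesis it was 7 of 20, for cholesterol synthesis 9 of 18, for branched-chain amino acid breakdown 15 of 21 and for fatty acid oxidation 13 of 17. The median diet effect of the adipocyte genes was -0.72 in wild type and -0.64 in knockouts. A positive interaction at an unadjusted p under 0.05 was found for 2, against 3.01% of all genes. These were Fabp4 and Plin4, a lipid droplet coat gene, at 0.38 ± 0.17. Of 20 genes of lipogenesis, 1 had a positive and 0 a negative interaction below that p, against 3.01% and 6.71% of all genes. It was Scd1, the desaturase that makes monounsaturated fat, which fell by 0.42 ± 0.05 in wild type and by 0.20 ± 0.04 in knockouts. Of 21 genes of branched-chain amino acid breakdown, 19 fell in each genotype, where 18.1% of all genes fell in wild type and 19.7% in knockouts. Their medians were -1.03 and -0.90. Of the 21, 0 had an interaction with an unadjusted p under 0.05, against 9.72% of all genes. The same held for 18 genes of cholesterol synthesis, whose medians were 0.42 and 0.40. Of 17 genes of fatty acid oxidation, 1 had a positive interaction at an unadjusted p under 0.05, against 3.01% of all genes. It was Ppargc1a, the coactivator of mitochondrial growth, at 0.70 ± 0.27. The medians of the adipocyte, lipogenesis and fatty acid oxidation lists were 0.08, 0.17 and 0.08 with all arrays and -0.05, -0.01 and -0.01 with the liver covariate.

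Markers of smooth muscle, B cells and liver had mostly positive values. All 10 smooth muscle and pericyte markers had positive interactions, where 41.5% of all genes did, with a median of 0.37. Of the 10, 3 had an unadjusted p under 0.05, against 3.01% of all genes on the positive side. These were Rgs5, a regulator of G protein signals in pericytes, at 0.56 ± 0.20, Cspg4 (the proteoglycan NG2) at 0.48 ± 0.17, and Des, a filament of muscle, at 0.41 ± 0.15. Rgs5 fell by 1.06 ± 0.14 in wild type and by 0.50 ± 0.14 in knockouts. Of 11 endothelial markers 1 was positive at an unadjusted p under 0.05, against 3.01% of all genes. It was the angiopoietin receptor gene Tek at 0.39 ± 0.17. The median of the endothelial list turned from 0.17 to -0.07 with the liver covariate.

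All 11 B cell markers had positive interactions, where 41.5% of all genes did, with a median of 0.57. Of the 11, 1 had an unadjusted p under 0.05, against 3.01% of all genes on the positive side. Jchain, the joining chain of secreted IgM and IgA, read 7.27, 6.21 and 6.54 in wild type on chow and 6.58, 6.30 and 6.86 on high-fat diet. In knockouts Jchain read 6.94, 5.72 and 6.52 on chow and 7.44, 9.50, 8.15 and 8.29 on high-fat diet. The 4 knockout high-fat arrays were the highest of all 13, with replicate 2 at the top, and the interaction was 2.04 (0.74 to 3.34, adjusted p 0.355). Without knockout high-fat replicate 2, the array high in lymphocyte markers, the median of the B cell list was 0.20. The 9 T cell markers had a median of -0.36, between -0.59 and -0.10 with 1 array left out. At an unadjusted p under 0.05, 2 of the 9 were negative and 0 positive, against 6.71% and 3.01% of all genes. Those 2 were Thy1 at -0.78 ± 0.25 and the IL-7 receptor gene Il7r at -0.91 ± 0.37.

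Of 18 liver markers, 17 had positive interactions, 6 of them at an unadjusted p under 0.05, where all genes gave 41.5% and 3.01%. The list median was 0.99 and ran from 0.64 to 1.56 with 1 array left out. Fgb, the beta chain of fibrinogen, read 8.54, 7.78 and 7.37 in wild type on chow and 6.02, 6.75 and 5.04 on high-fat diet. In knockouts Fgb read 5.66, 5.78 and 5.77 on chow and 5.83, 5.58, 4.89 and 5.01 on high-fat diet. The wild-type chow arrays were the high group, and wild-type high-fat replicate 2 came next. The interaction of Fgb was 1.55 ± 0.53 and that of Alb, serum albumin, 0.87 ± 0.86. Hp, haptoglobin, which adipocytes also make, had 0.37 ± 0.10 with other values: 12.28 to 12.46 in all chow arrays and 12.70 to 12.85 in knockouts on high-fat diet.

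**Figure D5:**
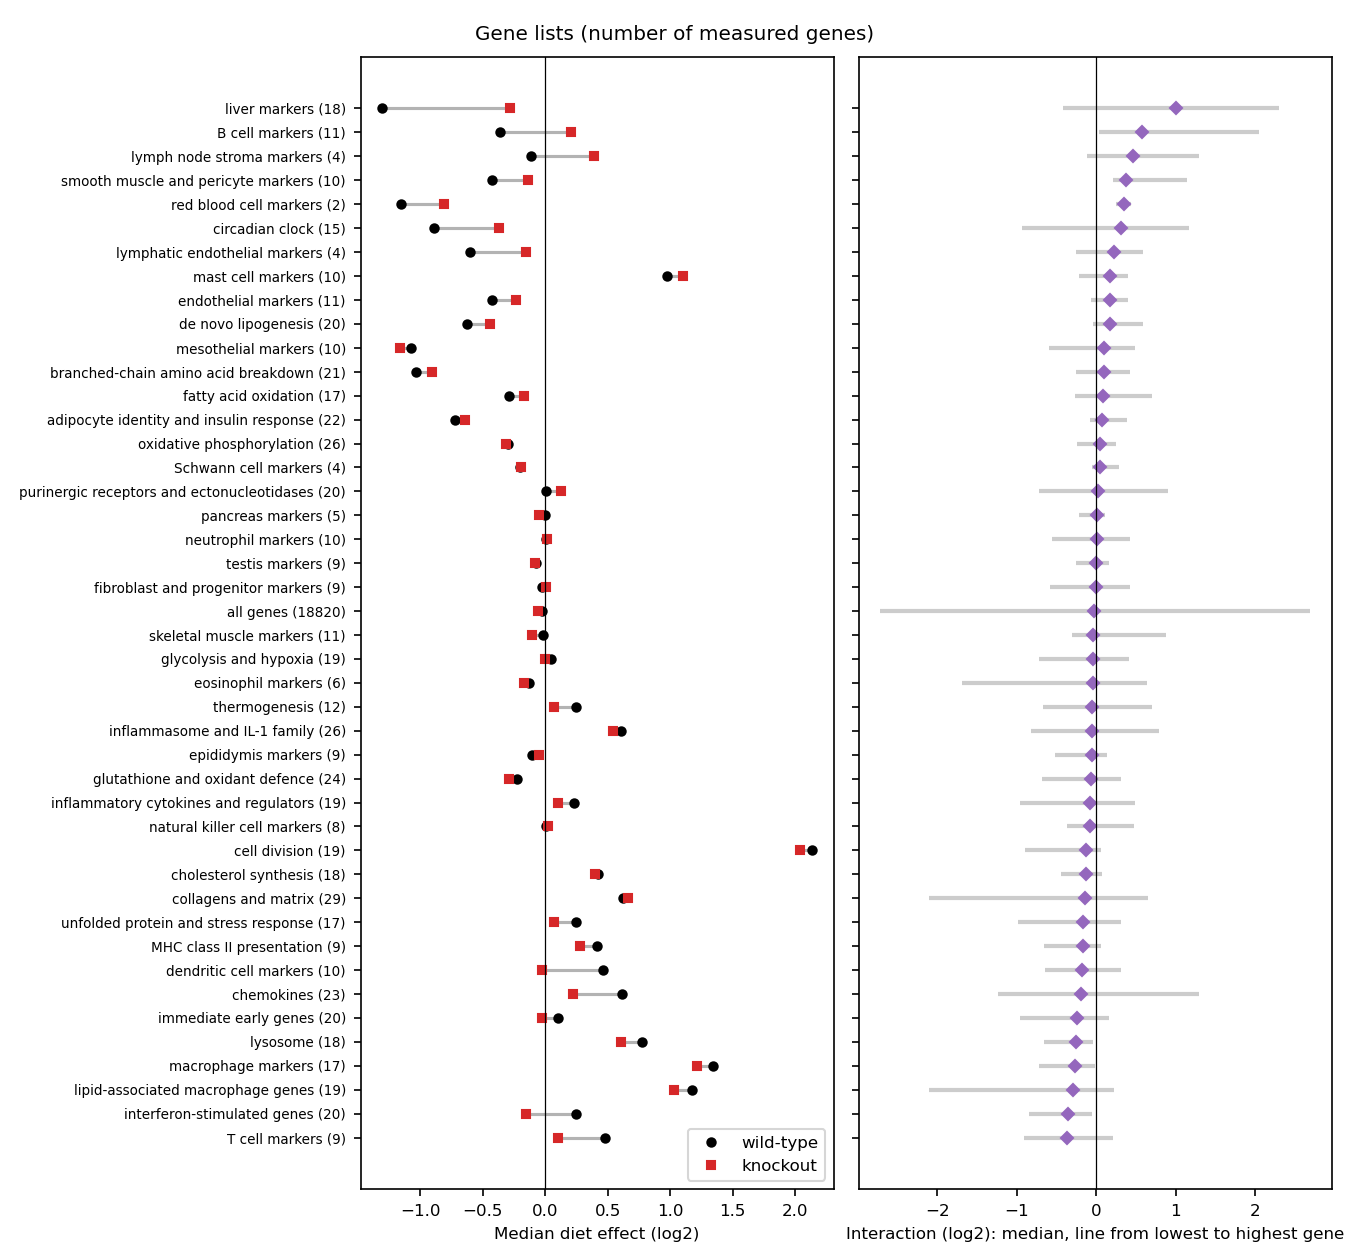
Left, median diet effect (log2, high-fat minus chow) of each gene list in wild-type mice (black circles) and knockout mice (red squares); right, median interaction of each list (diamond) with a line from its lowest to its highest gene, and the number of measured genes in brackets. The liver list lies at the top with a median of 0.99, the list of all genes at -0.03 and the T cell list at the bottom at -0.36.

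The genes that the diet changed most had interactions with wide intervals. Gpr50, an orphan relative of the melatonin receptors, rose by 6.09 ± 0.51 in wild type and by 5.77 ± 0.48 in knockouts, and the interval of its interaction of -0.32 reached past 2-fold in both directions. Atp6v0d2, a proton pump subunit of osteoclasts and lipid-laden macrophages, read 7.39, 5.24 and 6.83 in wild type on chow and 8.50, 7.01 and 8.54 in knockouts on chow, against 11.75 to 12.13 in the 7 high-fat arrays. Its interaction was -1.64 (-3.00 to -0.28). Tm4sf19, Rgs1 and Rnf128 had -1.57, -1.48 and -1.46, and the serotonin receptor gene Htr2b -0.68 (-1.36 to 0.00). For each of these 6 genes the high-fat groups overlapped. The strongest falls were closer to equal. Fam13a, a gene linked to fat distribution, fell by 3.39 ± 0.16 and by 3.16 ± 0.15, an interaction of 0.23 (-0.24 to 0.71), and Acsm5, Mogat1, Cyp2f2, Orm3 and Cyp2e1 had 0.24, 0.16, 0.02, -0.18 and -0.43.

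Genes near P2rx7 on its chromosome can still carry DNA of the strain the mutation was made in, over a length not known here. Of the 200 measured genes within 100 genes on either side, 3 had a positive and 22 a negative interaction at an unadjusted p under 0.05, against 3.01% and 6.71% of all genes, and the median was -0.07. Ksr2, a scaffold of the MAP kinase pathway, read 5.05, 4.95 and 5.02 in wild type on chow and 6.21, 5.81 and 5.99 on high-fat diet. In knockouts Ksr2 read 5.22, 5.09 and 4.89 on chow and 5.43, 5.34, 5.41 and 5.38 on high-fat diet. Its chow groups overlapped and its high-fat groups did not, and the interaction was -0.67 ± 0.15 (adjusted p 0.298). P2rx4 has the same shape, and Wsb2, Rilpl2 and Vps33a had -0.41, -0.68 and -0.35, with chow groups that did not overlap. None of the 200 passed with all arrays, and nor did any other gene. Without wild-type high-fat replicate 2, Ncf1, P2rx4, Wsb2, Ksr2 and Rilpl2 passed (limma adjusted p 0.0127 to 0.0438), where 0.563% of all genes did. With all arrays Ncf1 had the lowest interaction of the 200, -0.87.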

How the data were processed

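RNA of 13 samples was measured on Affymetrix whole-transcript arrays, labelled from 100 ng of total RNA per the labels' protocols. The deposited values are log2 intensities, made by the authors with RMA per the submitters' processing notes (version not given in the sources used here). RMA evens out the distributions of the arrays, so a shift of most genes in 1 direction can be lost. The medians of the deposited values still differed, from 5.72 in wild-type chow replicate 1 to 5.88 in knockout high-fat replicate 3. Of 35556 probe sets, 21218 named 1 gene and gave 18820 genes; 14338 named none or several.

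limma 3.58.1 in R 4.3.3 fitted 4 group means to all 13 arrays, with an intensity trend in eBayes and Benjamini-Hochberg adjustment over 18820 genes at 0.05. Intervals are 95% intervals of limma. Spread between few arrays limits precision. The fit was tested on simulated data. Named genes were P2rx7 and 5 inflammasome genes, the 10 most positive and 10 most negative statistics, up to 3 genes of smallest p per list, genes passing for diet with opposite signs, the 6 highest and 6 lowest mean diet effects, and 5 neighbours of P2rx7. The 43 lists (22 pathways, 21 cell types) hold 620 measured of 683 entries. The comparison and the lists were chosen with earlier results of these data known. Promoter windows came from RefSeq; 18790 genes matched its table. Alternatives covered variance estimation, scaling, filters, probe set choice, a minimum fold, liver markers, a replicate block and left-out arrays.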

Additional observations from a re-analysis of the deposited data

Results flagged for a closer look

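In the knockout high-fat group, the group of 4 arrays, 1 array lay far from the others for 10 of 145 named genes and 3 of 43 marker or pathway means; chance gives about 1 in 20. Replicate 1 was apart for Col6a1 (10.59), Msr1 (9.13), Klre1 (2.60), Cdh5 (11.15), Tm4sf19 (10.89) and Atp6v0d2 (11.75). For Msr1, a scavenger receptor of macrophages, its value lay below 9.51 to 9.54 in the others. Replicate 2 was apart for Slc2a1 (9.14), for the T cell gene Cd8b1 (6.23) and for the means of the T cell markers (6.95) and lymph node stroma markers (7.15). Replicate 4 was apart for Txnip (12.36) and the chaperone gene Hspa5 (11.76), and replicate 3 for the natural killer cell mean (4.73).

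Of 145 named genes, many of them chosen by their interaction, 4 had diet groups that lay apart in both genotypes and in opposite order. The share of all genes with this pattern was not counted. The 4 were Cyp39a1 (interaction 0.71), Skint11 (-0.42), Batf3 (-0.65), a factor of dendritic cells, and Stbd1 (-0.77). The interaction was tested for each with limma and did not pass.

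Among the 14338 probe sets that name no gene or several, 2 passed for the interaction when adjusted over these alone (limma, smallest adjusted p 0.0338; 1249 at an unadjusted p under 0.05). Adjusted over all 35556 probe sets, 0 passed (smallest adjusted p 0.0837; 3057 at an unadjusted p under 0.05).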

How the results depend on the processing

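The number of genes that passed for the interaction, 0 in the report, was 2 without the intensity trend, 2 among genes with a mean log2 of at least 5, 1 with array weights and 2 at an adjusted p under 0.1. It ran from 0 to 106 with 1 array left out, and was 59 without the array highest in liver markers of each wild-type group and 35 without the high-fat arrays nearest to chow, both chosen after seeing the data. With the replicate block (12 arrays, knockout high-fat replicate 4 left out) it was 0, with a limma adjusted p of 0.311 for Aox3. Between groups, the deviations of same-numbered arrays correlated at r of -0.298 to 0.222 (median 0.018). Those of arrays with different numbers correlated at -0.412 to 0.534 (median -0.014). With so few arrays per group these values cannot decide whether the numbers pair the arrays. A 1.2-fold minimum left 2995 genes for diet in wild type and 2450 in knockouts, and the liver covariate left 4067 in wild type; the cause was not tested. With 1 array left out these counts ran from 5678 to 7039 and from 5105 to 6652.

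Signs that turned were all of genes with interactions that did not pass. Casp1 was 0.0045 after a second quantile normalisation and 0.27 with the liver covariate, where Cyp2f2 was -0.18 and Mogat1 -0.17; Cyp2f2 was -0.018 with array weights. Without the array highest in liver markers of each wild-type group Gpr50 was 0.17, Orm3 0.0428, Cyp2f2 -0.0624 and Cyp2e1 0.16, and without the high-fat arrays nearest to chow Gpr50 was 0.12. With 1 array left out Casp1 ran from -0.19 to 0.0834, Orm3 from -0.43 to 0.081, Cyp2f2 from -0.38 to 0.34, Mogat1 from -0.0409 to 0.44, Il1b from -0.36 to 0.0142, Il18 from -0.050 to 0.14, Gpr50 from -0.94 to 0.29 and Cyp2e1 from -1.30 to 0.11.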

Other observations

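Hsph1 prompted a look at other cytosolic and mitochondrial chaperone genes, chosen after its values were seen, so their counts support nothing. Of 12 others measured, 11 had negative interactions, 4 of them at an unadjusted p under 0.05, where all genes gave 58.5% and 6.71%. Chordc1, Stip1, Ahsa1 and Hspa8, which act with HSP90 and HSP70, had -0.37, -0.35, -0.32 and -0.17 beside -1.42 for Hsph1. Stip1 rose by 0.31 ± 0.08 in wild type and was -0.03 ± 0.07 in knockouts. Dnaja1, a J-domain partner of HSP70, was the positive gene at 0.12. None passed limma's adjusted threshold.

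Among 10 mast cell markers the median diet effect was 0.98 in wild type and 1.10 in knockouts, and among 10 mesothelial markers -1.07 and -1.16. Of the mast cell genes 0 and of the mesothelial genes 1 had an interaction with an unadjusted p under 0.05, against 9.72% of all genes. Intervals reached past 2-fold for 5 and 9 genes of these lists, against 4.38% of all genes.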
